A study of Caenorhabditis elegans with 4 samples.

Results

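The propionate shunt of Caenorhabditis elegans is encoded by acdh-1, ech-6, hach-1, hphd-1 and alh-8, and these 5 genes, chosen by name, were read from count tables that list 46881 genes. The choice of these genes, and of the lists set beside them, was made with earlier results of these data known. All 5 passed the filter on low counts. The samples were hermaphrodites of the wild-type strain Bristol N2, put on bacterial lawns at 3 days of age and collected 1 day later. The MI-OMU01 group ate a natto strain of Bacillus subtilis, and the OP50 group ate Escherichia coli OP50, the usual laboratory food. Each group was 2 libraries of poly(A) RNA from whole worms, with about 200 worms per group, and the comparison asked which genes differed with the food. The labels do not tell whether both libraries of a food came from separate cultures. P-values therefore describe library-to-library spread, and that spread could be technical.

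Propionyl-CoA arises when valine, isoleucine, methionine and odd-chain fatty acids are broken down, and it is toxic when it builds up. Worms clear it by a route that needs vitamin B12 and ends in succinyl-CoA, or, when that vitamin is scarce, by the shunt, which needs no B12 and ends in acetyl-CoA. In the shunt ACDH-1 oxidizes propionyl-CoA, ECH-6 adds water to the product, HACH-1 removes the coenzyme A, HPHD-1 oxidizes the freed 3-hydroxypropionate and ALH-8 turns malonic semialdehyde into acetyl-CoA. Transcription of acdh-1 is a known reporter of diet in the worm and is low on bacteria rich in B12. Neither B12 nor propionate was measured in these files.

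Counted reads per library ran from 17601286 to 24381952 in MI-OMU01-fed worms and from 16962082 to 17327035 in OP50-fed worms. Each shunt gene held at least 1039 reads in every library, far above the 3 reads that a count of 0 allows. Levels are given as CPM, counts scaled by library size with TMM factors, which allow comparison of a gene between libraries. Levels of different genes are compared only as TPM, which are also scaled by the exon length in the tables. Fold changes are MI-OMU01 over OP50, with standard errors (SE) and Benjamini-Hochberg adjusted p-values from edgeR's quasi-likelihood test over 14967 genes, and a gene is said to have risen or fallen where that p is under 0.05.

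In worms fed MI-OMU01 the transcripts of the first 4 shunt enzymes fell, and the transcript of the last one did not pass the test. The fall was 5.39-fold for acdh-1, 2.89-fold for ech-6, 2.21-fold for hach-1 and 2.55-fold for hphd-1, while alh-8 had a log2 fold change of 0.18. Of all genes tested 29.7% passed the threshold, 15.2% as lower and 14.6% as higher, and 6.34% were lower by at least 2-fold. With total counts as library sizes in place of TMM the called genes split into 3206 higher and 1706 lower, against 2178 and 2271, and the median log2 fold change over all genes was 0.16 in place of 0.03. All 5 shunt genes averaged over 50 CPM, and among the 3983 genes at that level 22.8% were lower and 4.69% lower by at least 2-fold.

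The acyl-CoA dehydrogenase gene acdh-1 (WBGene00016943, chromosome I, 6497436 to 6499560 on the plus strand in WBcel235) opens the shunt. It stood at 249 and 249 CPM in the MI-OMU01 libraries, against 1241 and 1445 CPM in the OP50 libraries. The MI-OMU01 libraries were nearly equal and the OP50 libraries differed more, with an SD of 10.8% of their mean, and the groups were far apart. The log2 fold change was -2.43 (SE 0.11, adjusted p = 4.95e-12), and the 95% interval of the fall ran from 4.57-fold to 6.36-fold. Of the 14967 genes, 173 had a lower log2 fold change.

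The enoyl-CoA hydratase gene ech-6 (WBGene00001155, chromosome III, 9751440 to 9752922, minus strand) acts next. Its level was 162 and 158 CPM in MI-OMU01-fed worms and 457 and 467 CPM in OP50-fed worms. Both pairs of libraries were tight, with SDs of 1.93% and 1.46% of their means, and did not overlap. The log2 fold change was -1.53 (SE 0.10, adjusted p = 1.05e-09), a fall of between 2.48-fold and 3.36-fold at 95%.

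The hydrolase gene hach-1 (WBGene00017301, chromosome III, 5555404 to 5557318, plus strand) had 88.0 and 85.8 CPM in the MI-OMU01 libraries, against 196 and 189 CPM in the OP50 libraries. This was the smallest of the 4 falls, at a log2 fold change of -1.15 (SE 0.10, adjusted p = 5.04e-08). Its 95% interval, 1.91-fold to 2.57-fold lower, includes a fall of less than 2-fold.

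The hydroxyacid-oxoacid transhydrogenase gene hphd-1 (WBGene00012608, chromosome II, 12994358 to 12996571, minus strand) had 56.3 and 71.9 CPM in MI-OMU01-fed worms and 161 and 167 CPM in OP50-fed worms. It varied most between the MI-OMU01 libraries, with an SD of 17.2% of the mean, yet both lay below both OP50 libraries. The log2 fold change was -1.35 (SE 0.12, adjusted p = 4.08e-08), a fall of between 2.15-fold and 3.04-fold at 95%.

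The last gene, alh-8 (WBGene00000114, chromosome II, 11728949 to 11731226, plus strand), codes for methylmalonate semialdehyde dehydrogenase, which also serves the breakdown of valine. It had 1351 and 1373 CPM in the MI-OMU01 libraries, against 1127 and 1270 CPM in the OP50 libraries. The MI-OMU01 values were slightly above the OP50 values without overlap, as happened in one direction or the other for 63.1% of the genes tested. The log2 fold change of 0.18 (SE 0.11) had an adjusted p of 0.217, and its 95% interval ran from -0.039 to 0.41, which leaves out the falls of the other 4 genes. The adjusted p was 0.0189 with total counts as library sizes and 0.0292 without OP50 replicate 2, both with higher values in MI-OMU01-fed worms.

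**Figure D1:**
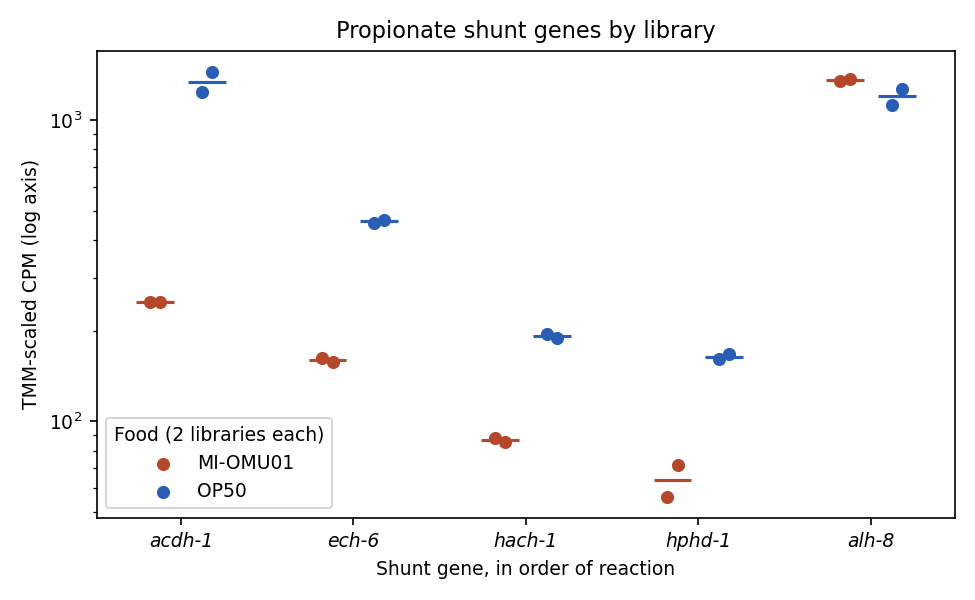
TMM-scaled CPM (log axis) of the 5 shunt genes in the order of their reactions, with a point per library and a line at the group mean. For acdh-1, ech-6, hach-1 and hphd-1 both MI-OMU01 points lie well below both OP50 points, while for alh-8 they lie slightly above, at 1351 and 1373 against 1127 and 1270 CPM.

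The sizes of the 4 falls were set side by side, with no test of their difference. Setting each MI-OMU01 library against each OP50 library gave log2 differences of -2.54 to -2.32 for acdh-1, -1.56 to -1.49 for ech-6, -1.57 to -1.16 for hphd-1 and -1.19 to -1.103 for hach-1. These ranges share libraries and describe spread only. The range of acdh-1 lay apart from the others, those of ech-6 and hach-1 lay apart from each other, and that of hphd-1 overlapped both.

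Scaled by length, the order of the shunt transcripts changed with the food. In MI-OMU01-fed worms alh-8 was highest at 1005 ± 0.905 TPM (SD, n = 2), followed by acdh-1 at 248 ± 2.74 TPM, ech-6 at 198 ± 6.20 TPM, hach-1 at 77.5 ± 2.36 TPM and hphd-1 at 54.7 ± 8.75 TPM. In OP50-fed worms acdh-1 was highest at 1181 ± 108 TPM (SD, n = 2), followed by alh-8 at 782 ± 53.1 TPM, ech-6 at 505 ± 1.07 TPM, hach-1 at 152 ± 6.15 TPM and hphd-1 at 124 ± 1.34 TPM. Neighbours in both orders were further apart than the SD of either. The TPM of alh-8 was 4.03 and 4.09 times that of acdh-1 in the MI-OMU01 libraries and 0.674 and 0.652 times in the OP50 libraries.

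The makeup of the shunt transcript pool differed in the same way. Within the summed TPM of the 5 genes, alh-8 made up 63.4% and 63.6% in MI-OMU01-fed worms and 28.3% and 28.7% in OP50-fed worms. The share of acdh-1 was 15.8% and 15.6% in the MI-OMU01 libraries, against 41.9% and 44.1% in the OP50 libraries. The TPM ratio of ech-6 to hach-1 was 2.55 and 2.55 in MI-OMU01-fed worms and 3.24 and 3.42 in OP50-fed worms. As shares of all counted reads, the first 4 genes held 0.0582% (95% exact binomial interval 0.0571% to 0.0594%) and 0.0589% (0.0580% to 0.0599%) in the MI-OMU01 libraries. In the OP50 libraries they held 0.197% (0.195% to 0.200%) and 0.215% (0.213% to 0.217%). The intervals cover counting error within a library only, not spread between libraries, and those of the OP50 libraries do not overlap. They also take each read as independent, though reads carried no molecular identifiers.

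The B12-dependent route was read from a list of 6 genes: pcca-1 and pccb-1 for propionyl-CoA carboxylase, mce-1 for the epimerase, mmcm-1 for methylmalonyl-CoA mutase, and mmaa-1 and mmab-1 for handling of its cofactor. Of these, mmaa-1 fell and the other 5 did not pass the test, and the median log2 fold change was -0.20, against 0.03 over all genes tested. A fall was called for 15.2% of all genes tested, and for 22.8% of those averaging at least 50 CPM. mmaa-1 had 105 and 107 CPM in MI-OMU01-fed worms and 164 and 164 CPM in OP50-fed worms (log2 fold change -0.63, SE 0.10, adjusted p = 8.20e-05). For mmcm-1 the values were 262 and 288 CPM in the MI-OMU01 libraries, against 263 and 241 CPM in the OP50 libraries, which overlap (log2 fold change 0.13, adjusted p = 0.414).

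The remaining genes of this route did not pass the test either. Their log2 fold changes were -0.14 for pcca-1 (adjusted p = 0.334), 0.10 for pccb-1 (adjusted p = 0.515), -0.26 for mce-1 (adjusted p = 0.125) and -0.31 for mmab-1 (adjusted p = 0.114). At an unadjusted p under 0.05 in edgeR, 3 of the 6 genes were lower, but the share of all genes at that looser threshold was not taken. With both routes on the length scale, the first 4 shunt genes summed to 0.671 and 0.643 times the TPM of the 6 B12-dependent genes in MI-OMU01-fed worms and to 2.20 and 2.45 times in OP50-fed worms. The summed TPM of the B12-dependent genes was 863 and 895 in the MI-OMU01 libraries, against 860 and 830 in the OP50 libraries. TPM carry no TMM scaling between libraries. As TMM-scaled CPM the same genes summed to 1213 and 1280 in the MI-OMU01 libraries, against 1319.5 and 1304 in the OP50 libraries.

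**Figure D2:**
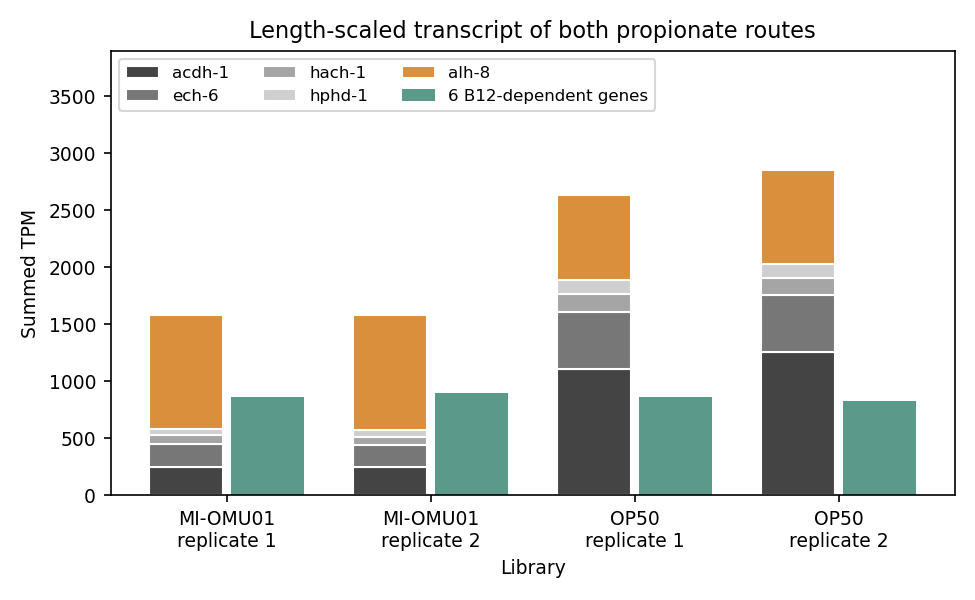
Summed TPM per library of the 5 shunt genes (stacked bars) beside that of the 6 genes of the B12-dependent route (green bars). The shunt bars reach 1585 and 1580 TPM in the MI-OMU01 libraries and 2634 and 2853 TPM in the OP50 libraries, with alh-8 the largest piece in the MI-OMU01 libraries and acdh-1 in the OP50 libraries, while the green bars lie between 830 and 895 TPM.

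Valine and isoleucine are branched-chain amino acids that give rise to propionyl-CoA, and leucine is one that does not. Of 9 genes listed for the breakdown of branched-chain amino acids, 5 fell and 4 did not pass the test. All had smaller changes than the first 4 shunt genes, and the median log2 fold change was -0.30. Among all genes tested 15.2% fell, and among those averaging at least 50 CPM 22.8% fell. The genes that fell were bckd-1B (-0.54, adjusted p = 0.00136), dbt-1 (-0.40, adjusted p = 0.00999), mccc-1 (-0.43, adjusted p = 0.00323), acdh-3 (-0.30, adjusted p = 0.0313) and B0250.5 (-0.44, adjusted p = 0.0112). bckd-1B and dbt-1 code for subunits of the branched-chain ketoacid dehydrogenase, and mccc-1 for a carboxylase of leucine breakdown. The log2 fold changes of the others were 0.27 for the aminotransferase gene bcat-1 (adjusted p = 0.0562), -0.27 for dld-1 (adjusted p = 0.0545), -0.26 for bckd-1A (adjusted p = 0.0867) and -0.13 for ivd-1 (adjusted p = 0.403). The 5 lower genes were 2 without MI-OMU01 replicate 1 or with total counts as library sizes, and 1 without MI-OMU01 replicate 2. With no filter on low counts or with the replicate block 7 were lower, and 6 with DESeq2 size factors in edgeR or in limma-voom. bcat-1 passed as higher with total counts (adjusted p = 0.00400), in limma-voom (0.0402), with the filter at 5 CPM (0.0354) and with the replicate block (0.00441). Without OP50 replicate 2 its log2 fold change was 0.31, and without OP50 replicate 1 it was 0.19.

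The shunt is switched on by the nuclear hormone receptors NHR-10 and NHR-68 when propionate persists, and NHR-114 acts in the other known response to low B12, which raises genes of the methionine cycle. The transcript of nhr-68 had 36.3 and 44.4 CPM in MI-OMU01-fed worms and 58.6 and 64.9 CPM in OP50-fed worms, a fall with a log2 fold change of -0.61 (SE 0.13, adjusted p = 0.000996). For nhr-10 the levels were 33.0 and 38.8 CPM in the MI-OMU01 libraries and 29.8 and 41.0 CPM in the OP50 libraries, and the groups overlapped (log2 fold change 0.02, SE 0.15, adjusted p = 0.936). nhr-114 fell, with 17.7 and 18.6 CPM in MI-OMU01-fed worms and 34.0 and 40.4 CPM in OP50-fed worms (log2 fold change -1.03, SE 0.14, adjusted p = 1.19e-05).

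All 5 genes listed for influx into the methionine cycle fell, at a median of -0.96 on the log2 scale. Among all genes tested 15.2% fell, and among those averaging at least 50 CPM 22.8% fell. This list, like the shunt genes and the other lists, was chosen with earlier results of these data known. The list holds the methionine synthase gene metr-1 (2.61-fold lower), its reductase mtrr-1 (1.69-fold), the folate cycle genes mthf-1 (1.77-fold) and mel-32 (1.94-fold), and pmp-5 (5.33-fold), whose human counterpart moves B12 out of lysosomes. pmp-5 had 18.5 and 21.8 CPM in MI-OMU01-fed worms, against 98.8 and 117 CPM in OP50-fed worms, at a log2 fold change of -2.42 that lies within 1 SE of that of acdh-1 (-2.43).

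**Figure D3:**
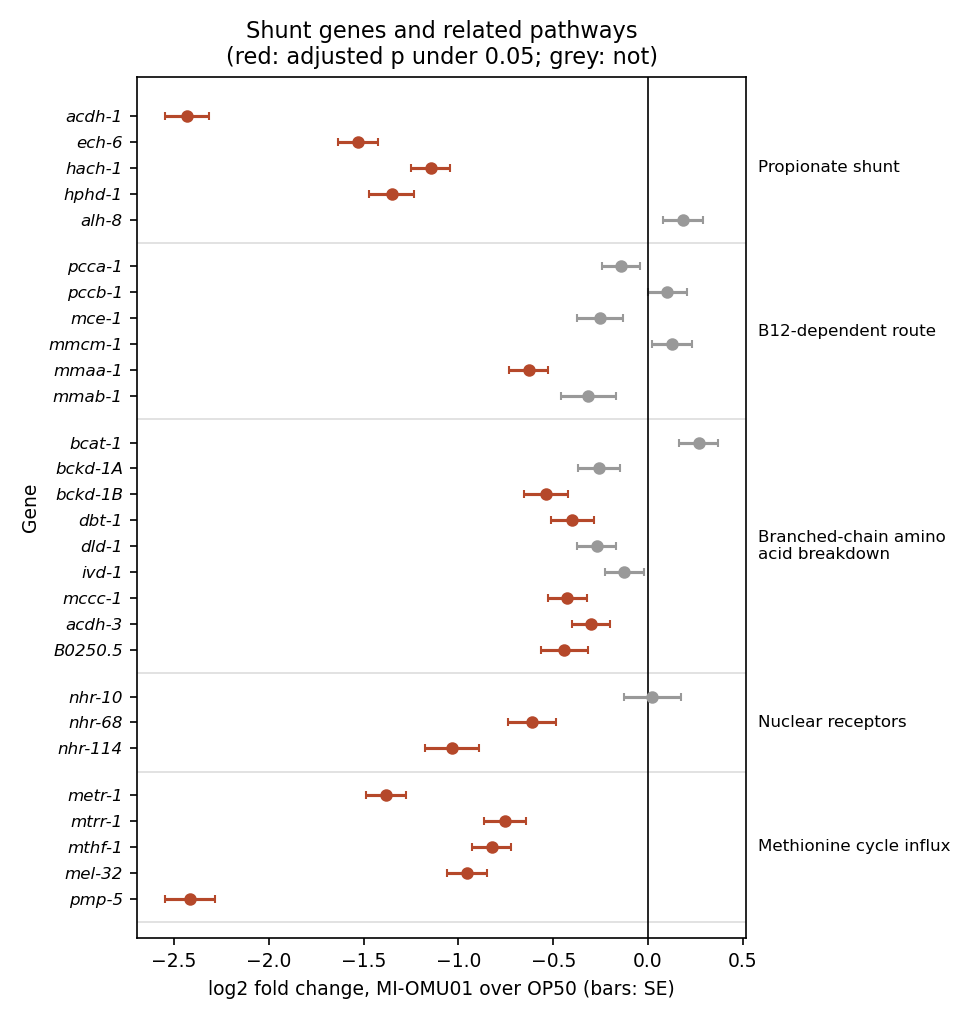
Log2 fold change, MI-OMU01 over OP50, of the shunt genes and the lists around them (points, bars are SE, red where the adjusted p is under 0.05). acdh-1 at -2.43 and pmp-5 at -2.42 lie furthest left, and alh-8 at 0.18 lies above the 6 genes of the B12-dependent route, which run from -0.63 (mmaa-1) to 0.13 (mmcm-1).

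The 5 protein-coding genes whose profile over the 4 libraries was nearest to that of acdh-1, among 9977 with a mean of at least 5 CPM, were K08D8.3, K08E7.5, pmp-5, D2024.4 and T19C3.2. Likeness was the Euclidean distance between mean-centred log2(CPM + 0.1) values, which ran from 0.11 for K08D8.3 to 0.18 for T19C3.2. The nearest, K08D8.3, had 3.04 and 3.34 CPM in MI-OMU01-fed worms and 17.1 and 19.5 CPM in OP50-fed worms. The distance is not scaled for the size of a change, so it largely restates differences in fold change from acdh-1. By it ech-6 was at rank 238 (distance 0.91), hphd-1 at rank 334 (1.097), hach-1 at rank 445 (1.30) and alh-8 at rank 7148 (2.61).

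Each of acdh-1, ech-6 and alh-8 belongs to a family of related enzymes, most of which act outside the shunt. The counts below stand beside 15.2% of all genes tested that fell and 14.6% that rose. Of the 11 other acyl-CoA dehydrogenase genes tested, 5 fell and 1 rose, at a median of -0.04 on the log2 scale (0.088 with total counts as library sizes). Among them acdh-2 fell more than acdh-1, with 2.01 and 3.69 CPM in MI-OMU01-fed worms and 33.6 and 37.8 CPM in OP50-fed worms, a 12.2-fold change (log2 fold change -3.60, SE 0.21, adjusted p = 1.21e-10). Per length acdh-2 reached 0.00730 and 0.0134 times the TPM of acdh-1 in the MI-OMU01 libraries and 0.0245 and 0.0237 times in the OP50 libraries. acdh-2 held 37 and 94 reads in the MI-OMU01 libraries and 548 and 621 reads in the OP50 libraries. These were too few to move the value of acdh-1 much, and with them added its log2 fold change was -2.45. The next falls in this family were acdh-6 (2.33-fold) and acdh-13 (1.38-fold), and acdh-7 rose 1.22-fold.

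Of the 9 other enoyl-CoA hydratase genes tested, 3 rose and 2 fell, at a median of 0.20 on the log2 scale. Over all genes tested 14.6% rose and 15.2% fell. ech-9 rose 7.98-fold, with 17.2 and 18.98 CPM in MI-OMU01-fed worms and 2.58 and 1.95 CPM in OP50-fed worms (adjusted p = 2.15e-09), in the direction opposite to ech-6. ech-7 rose 1.90-fold and ech-3 rose 1.47-fold, while ech-5 fell 1.37-fold and ech-2 fell 1.33-fold. Of the 11 other aldehyde dehydrogenase genes tested, 3 rose and 3 fell, at a median of 0.18 on the log2 scale. The largest changes were in alh-13, which fell 3.03-fold, and alh-1, which rose 2.40-fold, followed by alh-9 (1.83-fold lower) and alh-5 (1.76-fold higher). alh-6 fell 1.41-fold and alh-11 rose 1.29-fold.

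Whether several of the smaller of these family changes passed depended on the libraries kept and on the scaling. Leaving out a library leaves 1 in its group, which weakens the test. The log2 fold change of ech-3, 0.55 in full, was 0.53 and 0.57 without MI-OMU01 replicate 1 or 2. It was 0.44 and 0.63 without OP50 replicate 1 or 2. Among the acyl-CoA dehydrogenases 2 fell without MI-OMU01 replicate 1 or with total counts as library sizes, and 3 without MI-OMU01 replicate 2. The rise of ech-3 (adjusted p = 0.0105) did not pass without MI-OMU01 replicate 1 (0.0827), MI-OMU01 replicate 2 (0.0659) or OP50 replicate 1 (0.0582), nor did that of alh-11 (0.101, 0.243 and 0.128). The rise of acdh-7 (adjusted p = 0.0454) did not pass when any 1 of the 4 libraries was left out. Neither ech-2 nor ech-5 passed when either MI-OMU01 library was left out or total counts were the library sizes, while the lower hydratase genes were 1 without OP50 replicate 1 and 4 without OP50 replicate 2. Of the aldehyde dehydrogenases 6 rose with total counts as library sizes, and 2 rose without either MI-OMU01 library.

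**Figure D4:**
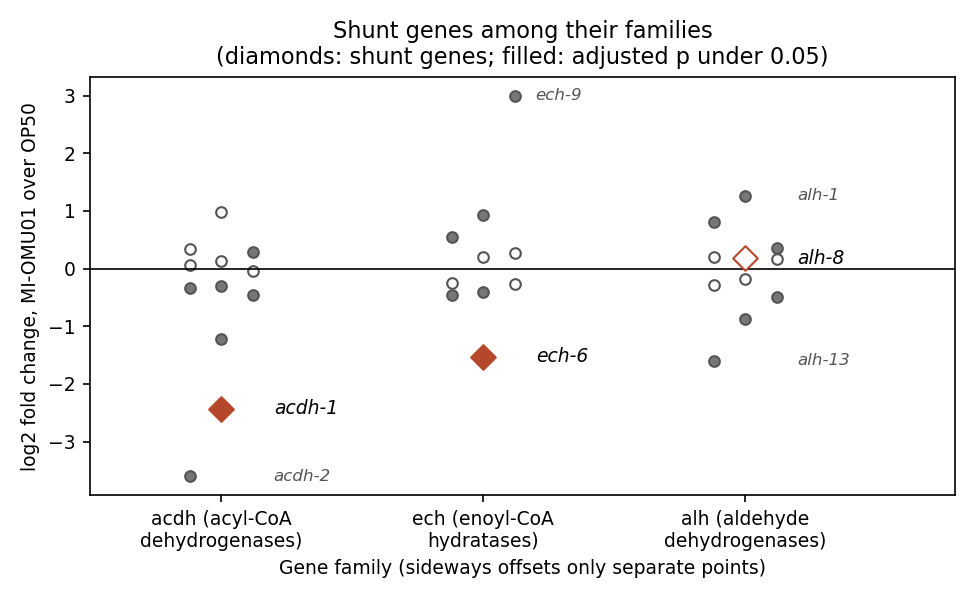
Log2 fold change, MI-OMU01 over OP50, of the acdh, ech and alh families, with a point per gene, filled where the adjusted p is under 0.05, and the shunt gene of each family as a diamond. ech-6 at -1.53 is the lowest of its family, acdh-1 at -2.43 lies above only acdh-2 at -3.60, and alh-8 at 0.18 lies among its family's middle values.

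Few reads could be shared with neighbouring genes. The table's exons of acdh-1 share 24 bases with C55B7.3 on the same strand, which had 61 and 155 reads in the MI-OMU01 libraries and 222 and 238 reads in the OP50 libraries, where acdh-1 had 4590 and 6341 reads, and 20225 and 23735 reads. With reads of C55B7.3 added, too few to move the value much, the log2 fold change of acdh-1 was -2.42. Exons of alh-8 share 62 bases with F13D12.8 on the opposite strand, which had at most 145 reads in a library, where alh-8 had at least 18373. No exon of ech-6, hach-1 or hphd-1 shares a base with another gene of the tables.

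acdh-1 is known to be active in the intestine and the hypodermis. In RNA of whole worms, a smaller share of RNA from a tissue and less of a transcript within that tissue cannot be told apart. Of 7 intestinal marker genes tested 3 rose and 2 fell, and their summed level was 1206 and 1384 CPM in MI-OMU01-fed worms and 1585 and 1648 CPM in OP50-fed worms. Of this sum act-5 alone, a marker that fell, held 541 and 608 CPM, against 858 and 919 CPM. Of 5 hypodermal marker genes tested 3 fell, with summed levels of 290.1 and 260 CPM in MI-OMU01-fed worms and 448 and 465 CPM in OP50-fed worms. The fall in the hypodermal sum lay mainly in col-19 and dpy-7. Their group means were 15.5 and 76.9 CPM in MI-OMU01-fed worms, against 123 and 165 CPM in OP50-fed worms. The means of elt-1, which also fell, were 17.8 against 23.9 CPM. Those of lin-26 and elt-3 were not lower, at 132 and 32.2 CPM against 117 and 27.8 CPM. The hypodermal count and sum therefore do not show a fall shared by all 5 markers. Over all genes tested 15.2% fell and 14.6% rose. No listed marker of these tissues was at 0 reads, and the part of these tissues in the fall of the shunt genes was not tested. The intestinal markers that rose were elt-7, ges-1 and mtl-2 (log2 fold changes 0.70, 0.42 and 0.998), and those that fell were act-5 and pept-1 (-0.63 and -1.40), while elt-2 (0.35, adjusted p = 0.193) and ifb-2 (0.047, adjusted p = 0.799) did not pass. The hypodermal markers that fell were col-19 (-3.01), dpy-7 (-1.104) and elt-1 (-0.43), while elt-3 (0.21, adjusted p = 0.352) and lin-26 (0.18, adjusted p = 0.229) did not pass. With total counts as library sizes 2 hypodermal markers fell and 1 rose.

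Other tissues were read from lists of their markers, set beside the 15.2% of all genes tested that fell and the 14.6% that rose. Of 5 muscle markers 3 fell, of 7 germline and oocyte markers 1 fell, and of 4 embryo markers tested 1 fell. Of 6 neuronal markers 0 passed in edgeR and 0 in DESeq2, with 1 at an unadjusted p under 0.05. Summed muscle marker levels were 4639 and 5397 CPM in MI-OMU01-fed worms and 6145 and 7206 CPM in OP50-fed worms. Of these sums unc-54 alone held 2370 and 2728 CPM, against 3316 and 3846 CPM. The muscle markers hlh-1 (log2 fold change 0.34, adjusted p = 0.116) and myo-3 (0.10, adjusted p = 0.599) did not pass. When single libraries were left out the intestinal markers that rose numbered 1 to 3, the hypodermal markers that fell 2 to 3, the muscle markers that fell 1 to 3 and the germline markers that fell 0 to 3. The lower embryo marker, tbx-37, had 8 and 6 reads in MI-OMU01-fed worms and 16 and 16 reads in OP50-fed worms, and did not pass when any 1 library was left out or in DESeq2. Of the neuronal markers 1 fell without OP50 replicate 1, 1 rose without OP50 replicate 2 and in limma-voom, and 2 rose with total counts as library sizes.

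**Figure D5:**
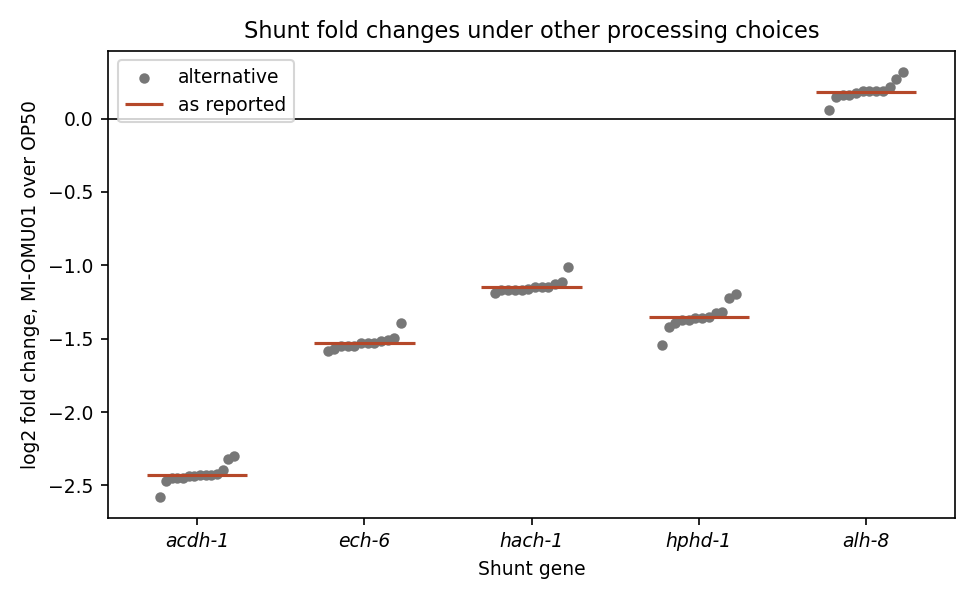
Log2 fold change, MI-OMU01 over OP50, of the 5 shunt genes as reported (red lines) and under each alternative of scaling, filter, test, block or left-out library (grey points, placed in order of value). acdh-1 stays between -2.58 and -2.30, the next 3 genes stay below -1, and alh-8 stays between 0.061 and 0.32.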

How the data were processed

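Messenger RNA was profiled in 2 MI-OMU01 and 2 OP50 libraries, made with a stranded kit per the labels' protocols. The authors deposited whole-number counts of reads per gene, with a file for each library. STAR 2.7.2b, featureCounts 1.6.4, Trim Galore 0.6.5, cutadapt 2.7 and Trimmomatic 0.39 and the builds ce11 and WBcel235 are named per the submitters' processing notes. The annotation release and the settings for strand and multiply mapped reads are not given in the sources used, so reads of near-identical copies and antisense partners may be split or mixed. Gene types came from the Ensembl release 115 annotation, which matched 46794 genes.

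Counts were filtered with filterByExpr (minimum count 10, minimum total 15), scaled with TMM and tested in edgeR 4.0.16 (R 4.3.3) with a robust quasi-likelihood model of group, over 14967 genes. SE is the log2 fold change over the square root of F, and 95% intervals use the model's degrees of freedom. Counts of libraries on the same food differed by more than sampling noise (chi-square per gene 7.44 for MI-OMU01 and 8.44 for OP50). Named were the 5 members, acdh-2, 3 nuclear receptors, whole lists of up to 10 genes, up to 3 rises and 3 falls in longer lists, and the 5 profiles nearest to acdh-1. C55B7.3 and F13D12.8 were named after their values were seen. Members and lists were chosen with earlier results of these data known. Alternatives used DESeq2 1.42.0, limma-voom (limma 3.58.1), other scalings and filters, left-out libraries and a replicate block. In simulated counts of 14710 genes, 200 well-counted genes were changed, all genes sharing the same dispersion. There edgeR recovered 88.1% of the 2-fold and 59.7% of the 1.5-fold changes. Far fewer genes were changed than were called in these data. No sequences were used here.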

Additional observations from a re-analysis of the deposited data

How the results depend on the processing

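The falls of acdh-1, ech-6, hach-1 and hphd-1 kept their direction and stayed past the threshold under all alternatives run. Their log2 fold changes ran from -2.58 to -2.30, -1.58 to -1.40, -1.19 to -1.01 and -1.54 to -1.19, and the highest adjusted p was 3.27e-06, for hphd-1 with the filter at 5 CPM. alh-8 passed with total counts as library sizes (log2 fold change 0.32). With single libraries left out its value ran from 0.061 to 0.27, and it passed without OP50 replicate 2 only. Total counts took the median over all genes to 0.16, against 0.03 with TMM, and the higher calls from 49.0% to 65.3% of all calls. With single libraries left out, the genes called ran from 2935 to 4571, those higher from 1262 to 2297 and those lower from 1505 to 2563, with 4 shunt genes lower each time. Replicate numbers are shared between the groups, but no label says that they pair libraries. Deviations of same-numbered libraries correlated at 0.211 across genes, which with 2 pairs does not settle pairing. With the replicate block 5807 genes passed, against 4449 without it, acdh-1 had a log2 fold change of -2.43 alh-8 an adjusted p of 0.0517, and 3 genes of the B12-dependent route were lower, mce-1 (adjusted p = 0.0292) and mmab-1 (0.0363) beside mmaa-1. Among 57 other named genes none that passed changed sign, and 21 changed sides of the threshold under at least 1 alternative. With 2 libraries a group, changes under 2-fold are the least certain.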

Other observations

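The worm has a pair of enzymes known to use B12 directly, methionine synthase (metr-1) and methylmalonyl-CoA mutase (mmcm-1), and their transcripts differed in their change. metr-1 had 240.1 and 261 CPM in MI-OMU01-fed worms and 654 and 652 CPM in OP50-fed worms, without overlap. Per length, metr-1 stood at 0.592 and 0.585 times the TPM of mmcm-1 in the MI-OMU01 libraries and at 1.61 and 1.74 times in the OP50 libraries, so the order of the pair was turned round between the foods in all 4 libraries. The difference between the genes was not tested.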
